A study of Mus musculus with 7 samples.

Results

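Janus kinases (JAKs) and signal transducers and activators of transcription (STATs) carry cytokine signals from the cell surface to the nucleus, and 9 of their genes were examined in microglia of young and old mice after stroke. These were the kinases Jak1, Jak2, Jak3 and Tyk2 and the factors Stat2, Stat3, Stat5a, Stat5b and Stat6. The genes were chosen by symbol with the old and young read counts and TPM values of these same libraries in view. The differences between ages are therefore given as a description, and passing a threshold in the fits of all genes is not read as support. The 9 genes are among the 50686 listed in each library, and all 9 are among the 17559 genes tested. Brain microglia came from C57BL/6 male mice that had a 45 min transient middle cerebral artery occlusion, and were sorted by FACS 4 days postischemia. The young mice were 3 to 4 months old (n = 4, libraries 14C, 18C, 23C and 29C) and the old mice were 21 to 22 months old (n = 3, libraries 2posI, 3posI and 4posI). The labels list no drug treatment, and by the study's methods all mice had isoflurane anesthesia and buprenorphine as analgesic. Every mouse was ischemic, and the cells of both ages were gated with antibodies to CD11b and CD45 and as Bodipy+, that is, rich in neutral lipid droplets. Each library was 1 mouse, made from polyadenylated RNA with the low-input, non-stranded Smart-seq2 protocol, so the spread between libraries includes both animals and amplification. Microglia that were Bodipy-, sham-operated or female were not analysed here.

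JAKs sit on the cytoplasmic tails of cytokine receptors. When a ligand brings the receptor chains together the kinases phosphorylate the receptor and then the STATs, which pair up, enter the nucleus and bind DNA. Jak1 serves most of these receptors, Jak2 serves those for erythropoietin, GM-CSF and interferon gamma, Jak3 works with the common gamma chain of the interleukin-2 receptor family in blood-derived cells, and Tyk2 works with the receptors for type I interferon, interleukin-10 and interleukin-12. In microglia the route is known for responses to interferons and to the interleukin-6, interleukin-10 and interleukin-4 families. RNA counts measure the supply of transcripts and not the phosphorylation that switches these proteins on.

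Expected counts summed to between 36574083 and 53002386 per library. In the whole table, 141 of 17559 genes passed an adjusted p of 0.05 between ages in edgeR, which is 0.803%, with 100 higher and 41 lower in old mice. CPM values (counts scaled to the size of the library, with TMM factors) of old and young libraries did not overlap for 17.7% of genes. An unadjusted p under 0.05 was found for 18.9% of genes (3326) in edgeR, and the adjusted threshold was passed by 0.814% in limma-voom and by 7.97% (1399) in DESeq2. Microglia markers, led by Fcrls, Csf1r, Aif1 and Tmem119, were abundant in all libraries, with summed CPM of 9 genes from 12156 to 19936 in young and from 6971 to 14784 in old mice. Library 3posI of an old mouse stood apart. It had the lowest microglia sum, 6971 CPM, and a summed CPM of 6 monocyte markers, led in that library by Chil3 and F13a1, of 2415, compared with 129 and 174 in the other old libraries and 36.1 to 206 in young mice. No monocyte marker was at 0 in all libraries of an age. Of the 6, 2 did not overlap between ages, both higher in old mice, against 17.7% of all genes. Ly6c2 had 15.3, 162 and 9.59 CPM in 2posI, 3posI and 4posI, and 0.946 to 2.86 CPM in young mice. Plac8 had 6.91, 86.2 and 11.7 CPM, and 0.922 to 4.56 CPM in young mice. The median log2 fold change of the 6 markers was 3.69, and 0.91 without 3posI. In bulk samples, fewer cells of a type and less RNA per cell cannot be told apart. Values without 3posI are therefore given as well for each of the 9 genes and, where they differ by over 1.5 times or in sign, for the medians of the pathway lists, and the part of the monocyte markers in them was not tested.

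The start sites of the kinases that separated the ages and of Stat2 are shown because they differ in base composition and in a STAT motif. Each sequence is the 250 bases before the RefSeq start site on GRCm38.p6, 5′ to 3′ on the gene's strand. Capitals mark an interferon-stimulated response element (ISRE), searched as GAAANNGAAA and, on the other strand, TTTCNNTTTC. The windows are chr19:29251553-29251802 (plus strand) for Jak2, chr8:71676133-71676382 (plus strand) for Jak3, chr9:21131276-21131525 (minus strand) for Tyk2 and chr10:128270248-128270497 (plus strand) for Stat2.
Jak2: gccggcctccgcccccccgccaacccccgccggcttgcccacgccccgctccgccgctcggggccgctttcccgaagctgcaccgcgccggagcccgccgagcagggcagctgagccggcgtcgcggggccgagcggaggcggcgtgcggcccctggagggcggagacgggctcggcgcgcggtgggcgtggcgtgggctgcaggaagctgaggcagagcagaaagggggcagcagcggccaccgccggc
Jak3: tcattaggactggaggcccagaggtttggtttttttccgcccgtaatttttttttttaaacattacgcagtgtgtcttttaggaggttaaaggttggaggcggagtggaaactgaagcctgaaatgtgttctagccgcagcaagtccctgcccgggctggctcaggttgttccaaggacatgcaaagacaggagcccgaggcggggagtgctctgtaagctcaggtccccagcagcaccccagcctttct
Tyk2: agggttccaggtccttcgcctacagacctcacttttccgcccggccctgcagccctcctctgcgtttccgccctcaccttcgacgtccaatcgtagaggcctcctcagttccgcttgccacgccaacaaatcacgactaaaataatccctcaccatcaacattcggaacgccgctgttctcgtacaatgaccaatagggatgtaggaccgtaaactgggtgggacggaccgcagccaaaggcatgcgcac
Stat2: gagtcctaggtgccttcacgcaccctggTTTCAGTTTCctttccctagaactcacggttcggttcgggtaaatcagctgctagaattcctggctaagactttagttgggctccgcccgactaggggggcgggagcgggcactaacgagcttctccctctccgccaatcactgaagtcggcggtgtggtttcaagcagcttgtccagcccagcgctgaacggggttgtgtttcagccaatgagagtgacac
The Jak2 window held 37 CpG dinucleotides, more than in 97.8% of 32851 windows of all genes, whereas the Jak3 window held 8, close to the median of 6. Tyk2 had 19 and Stat2 had 14. All 9 genes had a window, and Stat5a and Stat5b had a second start site, giving 11 windows. Among genes whose CPM overlapped between ages, Stat5b had 40 CpG (more than in 98.7% of all windows) and 5. Stat5a had 5 and 21, Jak1 had 19, Stat3 had 13 and Stat6 had 6. The ISRE letters were found in 1 of the 11 windows, that of Stat2, as TTTCAGTTTC beginning 222 bases before the start site. They were in 2.98% of all windows. The gamma-activated site searched as TTCNNNGAA, which reads the same on both strands and which STAT homodimers bind, was in none of the 11 and in 7.02% of all windows. A match describes the letters only.

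Among the kinases, Jak3 and Tyk2 were lower and Jak2 was higher in every old library than in any young one, while Jak1 overlapped between ages. Jak3 lies at chr8:71676296-71690575 on the plus strand (GRCm38, GENCODE vM21). In young mice it had 129 CPM in 14C, 127 in 18C, 148 in 23C and 141 in 29C. In old mice it had 56.6 CPM in 2posI, 67.3 in 3posI and 64.4 in 4posI. The lowest young library was thus well above the highest old one. Means were 136 ± 9.85 CPM (SD, n = 4) and 62.8 ± 5.52 CPM (SD, n = 3), a log2 fold change of -1.12 with a standard error of 0.12, or 0.461 of the young level. Without 3posI the log2 fold change was -1.17.

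Tyk2, the kinase that shares the interferon receptor with Jak1, lies at chr9:21104068-21131243 on the minus strand. It had 53.9, 60.5, 55.6 and 53.1 CPM in young libraries 14C, 18C, 23C and 29C. In old libraries 2posI, 3posI and 4posI it had 28.0, 39.6 and 35.0 CPM. The young values were close together and all lay above the old ones. Its log2 fold change was -0.71 with a standard error of 0.14, or 0.613 of the young level, and -0.82 without 3posI.

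Jak2 was the least counted kinase and moved the other way. The gene is at chr19:29251828-29313080 on the plus strand. Its young values were 16.8 CPM in 14C, 13.2 in 18C, 13.4 in 23C and 17.4 in 29C. Its old values were 25.2 CPM in 2posI, 31.7 in 3posI and 21.6 in 4posI. The gap between ages was narrow, from 17.4 to 21.6 CPM, and the spread within each age was wide beside it. For Jak2 the log2 fold change was 0.79 with a standard error of 0.18, or 1.72 times the young level, and it was 0.62 without 3posI.

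Jak1, at chr4:101152367-101265282 on the minus strand, was the most counted kinase. It had 194, 179, 174 and 182 CPM in 14C, 18C, 23C and 29C, and 202, 214 and 183 CPM in 2posI, 3posI and 4posI. Library 4posI lay inside the young range, so the ages overlapped. For Jak1 the log2 fold change was 0.13 with a standard error of 0.11, and 0.08 without 3posI.

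**Figure D1:**
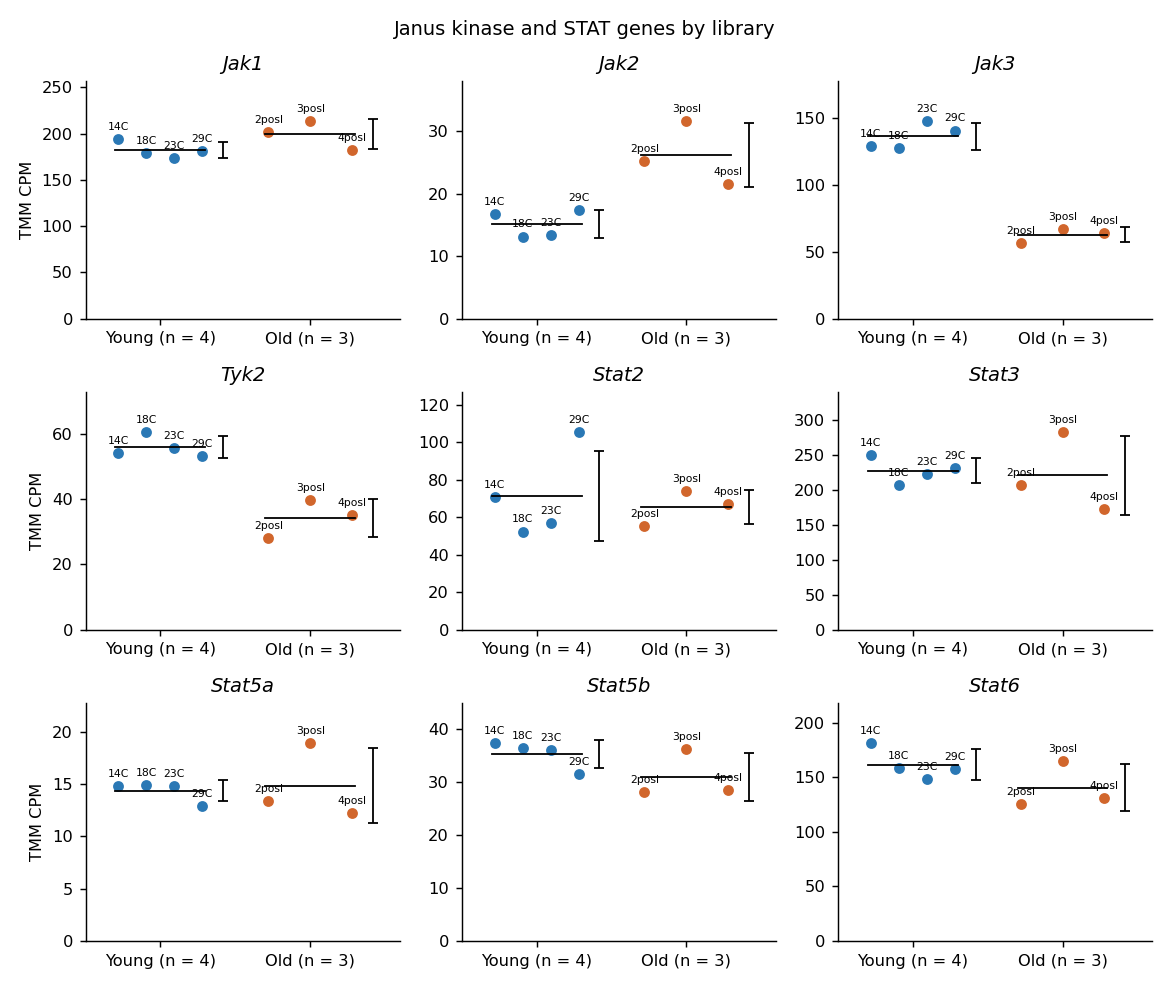
CPM (vertical axes, from 0) of the 9 genes in each library of young (blue, n = 4) and old (orange, n = 3) mice; the line is the mean and the bar on its right 1 SD. Jak3 and Tyk2 sit lower and Jak2 higher in all old libraries, from 56.6 to 67.3 against 127 to 148 CPM for Jak3, and the other 6 genes overlap.

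The STAT genes gave smaller differences in counts, and none of the 5 separated the ages. Stat2 (chr10:128270559-128292849, plus strand), which joins Irf9 in the complex that type I interferon activates, had 70.9, 52.4, 56.7 and 105 CPM in 14C, 18C, 23C and 29C. In old mice it had 55.5, 73.9 and 66.9 CPM in 2posI, 3posI and 4posI. Young library 29C stood above every other library of either age. The log2 fold change was -0.13 with a standard error of 0.24, which was 0.12 without 29C and -0.22 without 3posI.

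Stat3, which the interleukin-6 and interleukin-10 families activate, had 250, 207, 223 and 232 CPM in the young libraries in the same order. The old libraries had 207 CPM in 2posI, 283 in 3posI and 173 in 4posI. The old values spanned more than the young ones on both sides. For Stat3 the log2 fold change was -0.04 with a standard error of 0.18, and -0.26 without 3posI.

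Stat5a and Stat5b are close copies that answer to GM-CSF, prolactin and the interleukin-2 family. Stat5a had 14.85, 14.97, 14.81 and 12.88 CPM in young and 13.4, 19.0 and 12.2 CPM in old mice, again in library order. Stat5b had 37.5, 36.5, 36.1 and 31.6 CPM in young and 28.1, 36.2 and 28.6 CPM in old mice. For both genes 29C was the lowest young library and 3posI the highest old one, so the ages overlapped. The log2 fold changes were 0.05 (standard error 0.18) for Stat5a and -0.19 (standard error 0.13) for Stat5b, and without 3posI they were -0.17 and -0.32.

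Stat6 (chr10:127642986-127660957, plus strand), the factor of the interleukin-4 and interleukin-13 response, had 182, 158, 148 and 157 CPM in young mice. It had 126, 165 and 131 CPM in 2posI, 3posI and 4posI. Both old libraries other than 3posI lay below all young libraries. Stat6 had a log2 fold change of -0.20 with a standard error of 0.14, or -0.33 without 3posI.

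In counts, therefore, 3 of 9 genes did not overlap between ages, 1 higher and 2 lower in old mice, where 17.7% of all genes did not overlap. Jak3 was the 1 gene of the 9 that passed the threshold in edgeR, against 0.803% of all genes, and DESeq2 passed 3, Jak2, Jak3 and Tyk2, against 7.97% of all genes. These counts come from the comparison in whose light the genes were picked, and nothing is read from them. The median log2 fold change was -0.13 over the 9 genes and -0.01 over all genes tested. Among the old libraries all 9 genes were highest in 3posI, as were 36.8% of all genes tested.

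Levels can be compared between genes in TPM, the transcript abundance of the authors, which is scaled to the library and divided by length. By mean TPM over 7 libraries the order was Stat3 (80.2), Jak1 (71.8), Stat6 (69.0), Jak3 (37.1), Stat2 (29.9), Tyk2 (14.5), Stat5b (9.53), Stat5a (5.97) and Jak2 (5.37). The ranges of Stat3, Jak1 and Stat6 overlapped within each age, as did those of Stat5a and Jak2. Ranges leave out that the genes were measured in the same libraries, so the rank within each library is given too. Within old mice the ranges of Jak3 and Stat2, of Tyk2 and Stat5b, and of Stat5b and Stat5a overlapped as well, and within young mice these 3 pairs did not. Stat3 was at rank 1, Tyk2 at rank 6 and Stat5b at rank 7 in each of the 7 libraries. Jak3 was at rank 4 in all young libraries and at rank 5 in all old ones, with Stat2 taking the other place. Jak2 was at rank 9 in all young libraries and at rank 8 in all old ones, with Stat5a the reverse.

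Of the TPM that the 4 kinases held together, Jak3 made up 30.5% to 35.1% in young libraries and 19.7% to 23.0% in old ones. Jak2 made up 2.48% to 3.28% and 6.07% to 7.57%, and Jak1 made up 51.1% to 55.2% and 60.1% to 64.8%. The ages did not overlap for these 3 shares, nor for the share of Tyk2, which ranged from 11.3% to 13.1% among young and from 8.79% to 10.9% among old libraries. Shares of 1 total are bound to each other, so these are not separate measurements.

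**Figure D2:**
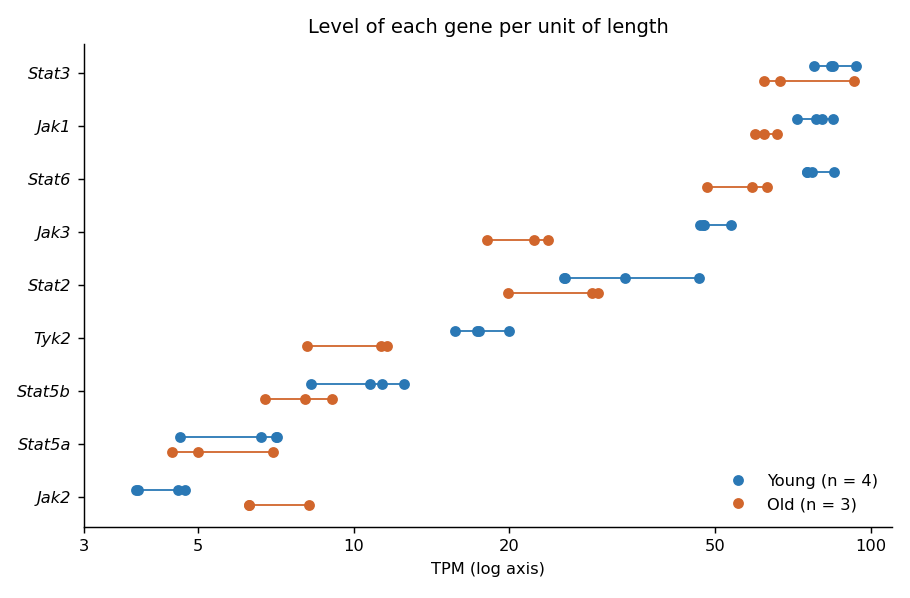
TPM of each gene on a log axis, ordered by its mean, with points for libraries and lines from lowest to highest for young (blue, n = 4) and old (orange, n = 3) mice. Young and old lines are apart for Jak1, Jak2, Jak3, Tyk2 and Stat6, and old Jak3, at 18.1 to 23.8 TPM, overlaps old Stat2.

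TPM and counts differed for Jak1. In TPM it was lower in every old library, at 59.7, 66.0 and 62.2 in 2posI, 3posI and 4posI, than in the young ones, at 84.5, 80.4, 78.2 and 71.9. The log2 ratio of mean TPM was -0.33 where the log2 fold change of counts was 0.13, so the direction was not the same on the 2 scales. Stat6 also separated in TPM, with 75.3 to 84.9 TPM in young and 48.3 to 63.0 TPM in old libraries. In all, 5 of 9 genes did not overlap in TPM, of which only Jak2 was higher in old mice, and 17.5% of all genes did not overlap. Over all genes tested the median log2 ratio was -0.12 in TPM, and every ratio of TPM given here stands beside that shift.

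The length by which counts were divided was itself estimated in each library. RSEM weights the transcripts of a gene by their estimated abundance, so this effective length follows the transcript mix. For Jak1, which has 8 annotated transcripts of 374 to 4906 bases in GENCODE vM21, it was 3199, 3203, 3135 and 3300 bases in young and 4134, 4117 and 4186 bases in old mice. The old libraries were close together and far above the young ones. The log2 ratio of 0.37 was above that of 96.4% of all genes tested. Effective length was also longer in all old libraries for Stat2, Stat5b and Stat6, and shorter for Jak2 by a small margin, 4910 to 4924 against 4939 to 4981 bases. In all, 5 of 9 genes did not overlap in effective length, against 12.9% of all genes, 1528 of them longer and 742 shorter in old mice. Jak3 and Tyk2 overlapped, so their lower level in old mice stood in both scales. When the effective length entered the edgeR fit as an offset, the log2 fold change of Jak1 was -0.24 and that of Jak3 was -1.11. Which Jak1 transcripts differ was not tested, since the files hold values per gene.

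**Figure D3:**
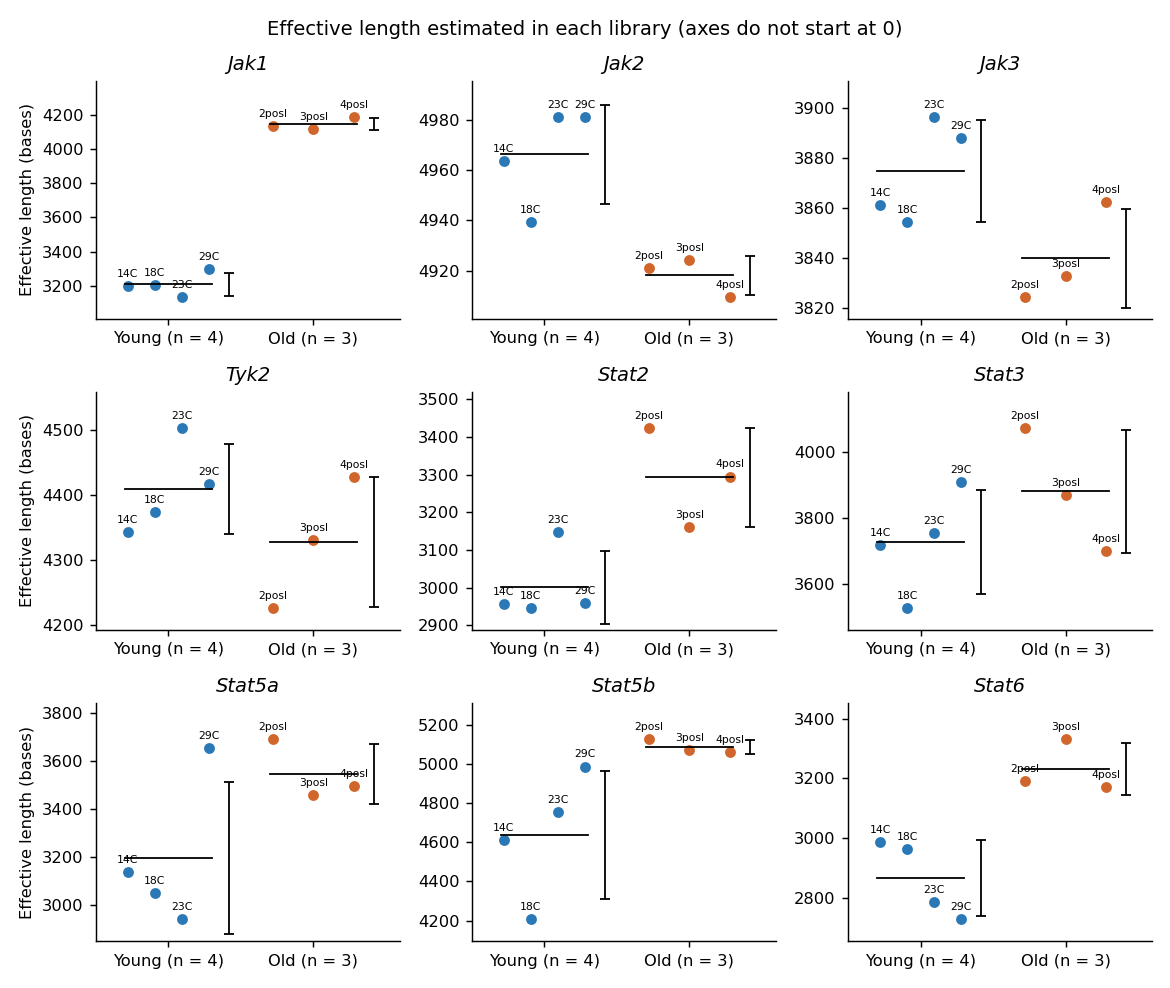
Effective length in bases in each library (vertical axes do not start at 0) for young (blue, n = 4) and old (orange, n = 3) mice, with the mean as a line and 1 SD as a bar. Jak1 lies between 3135 and 3300 bases in young and between 4117 and 4186 bases in old mice, while the libraries of Jak2 span only 4910 to 4981 bases.

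Neighbouring genes share reads with some of the 9. Insl3, a hormone gene on the same strand, overlaps 1362 bases of Jak3 and had 40.6 to 126 expected counts, beside 1901 to 7550 for Jak3. With Insl3 added, the log2 fold change of Jak3 was -1.08. The antisense gene 1700084C06Rik covers 24326 bases of Tyk2, and reads of the 2 cannot be told apart in these non-stranded libraries, but it had at most 72.9 counts beside 940 to 2835 for Tyk2, and adding it gave -0.72. Stat5b, Stat5a and Stat3 lie side by side on chr11 (100780731-100850724, 100859351-100885169 and 100885098-100939540), and the last 2 overlap by 72 bases at their ends. RSEM gave counts that were not whole (beyond 0.001) in all 7 libraries for Stat3, Stat5a and Stat5b, in 6 for Jak3 and Tyk2, in 1 for Stat2 and in none for Jak1, Jak2 and Stat6. Reads split between Stat5a and Stat5b make their separate values uncertain, and their summed counts gave a log2 fold change of -0.12.

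**Figure D4:**
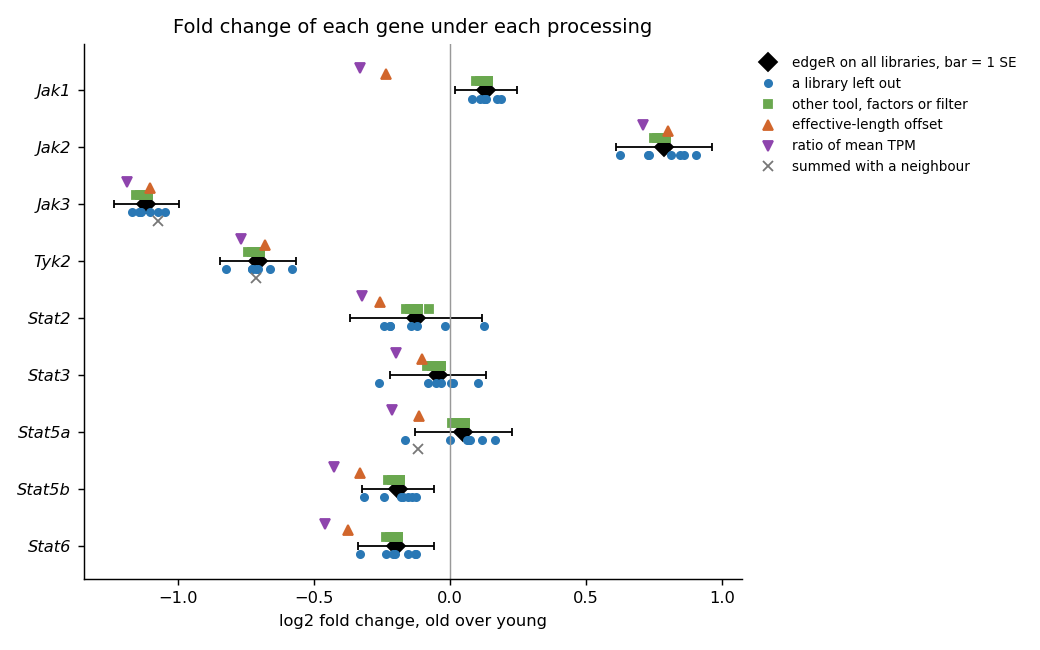
Log2 fold change of each gene, old over young (horizontal axis; 0 is no difference), by edgeR on all libraries (diamond, bar 1 SE), with each library left out, with other tools, factors or filters, with the effective-length offset, in mean TPM and summed with a neighbouring gene. Jak2, Jak3 and Tyk2 stay on their side of 0 throughout, and Jak1 crosses it with the offset (-0.24) and in TPM (-0.33).

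Of the other STAT genes, Stat4, the factor of the interleukin-12 response in lymphocytes, had 0.996, 0.559, 0.706 and 0.452 CPM in young and 1.88, 6.67 and 1.01 CPM in old mice. The lowest old library was only just above the highest young one, and 3posI was far above the rest. Stat4 did not pass in edgeR (log2 fold change 2.23, standard error 0.62, adjusted p 0.125) or in limma-voom, and it passed in DESeq2. Without 3posI the log2 fold change was 1.09.

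Within each age, the interferon target genes of the complex with Stat2 varied between libraries together with it. Its partner Irf9 ran the other way in old mice, with 98.6, 85.5 and 91.7 CPM in 2posI, 3posI and 4posI. The mean log2 CPM of 16 interferon target genes was 5.23 in 14C, 4.61 in 18C, 5.02 in 23C and 6.17 in 29C. In old mice it was 5.92 in 2posI, 6.48 in 3posI and 6.02 in 4posI. Within each age, libraries with more target RNA had more Stat2, and 29C led the young mice in both. Old libraries, however, held 55.5 to 73.9 CPM of Stat2 at target levels where 29C held 105. Over 7 libraries the Pearson correlation of Stat2 with the target mean was 0.613, and 0.969 for deviations from the age means. The same deviations gave 0.912 over the 6 libraries other than 29C. Their young mean still included 29C, so this value is not free of that library. Of the 16 targets 15 had a higher fitted level in old mice, with a median log2 fold change of 0.89, and none passed in edgeR or limma-voom. An unadjusted p under 0.05 was found for 10 of them, against 18.9% of all genes. Without 3posI it was found for 3, against 3066 of 17375 genes, and the median of the targets was 0.71. DESeq2 passed 3, against 7.97% of all genes. Among the most abundant, Ifit3 had 63.5 to 260 CPM in young and 221 to 256 CPM in old mice, and Irf7, the factor that amplifies interferon production, had 67.2 to 220 and 187 to 369 CPM. Cxcl10, a chemokine, was at 121 to 223 and 66.0 to 229 CPM, and Rtp4 at 46.3 to 126 and 124 to 152 CPM.

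**Figure D5:**
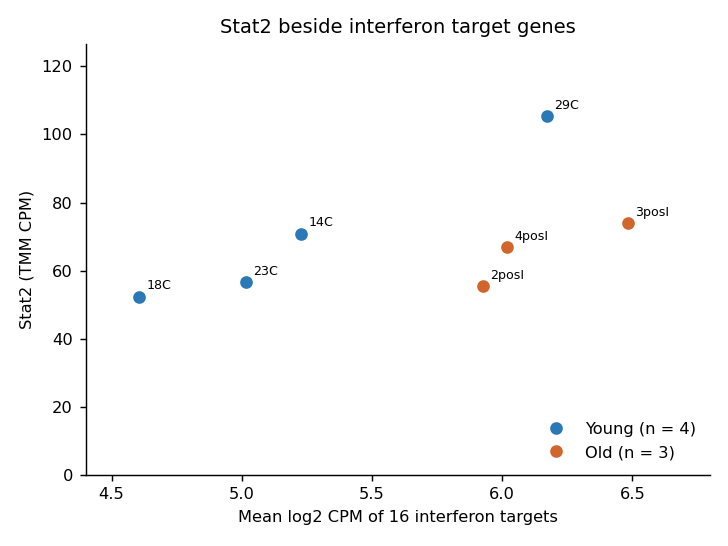
Stat2 in CPM (vertical axis, from 0) against the mean log2 CPM of 16 interferon target genes, 1 point a library, young (blue, n = 4) and old (orange, n = 3). Young library 29C is the highest at 105 CPM, and the old libraries, at 55.5 to 73.9 CPM, lie to the right of the other young ones at similar Stat2.

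Receptors and ligands of the route did not pass in edgeR. Of 40 receptor chains 32 were tested, 23 of them with a lower fitted level in old mice, with a median log2 fold change of -0.15. None passed in edgeR or limma-voom. An unadjusted p under 0.05 in edgeR was found for 5, against 18.9% of all genes. Without 3posI it was found for 8, against 3066 of 17375 genes. DESeq2 passed 3 with all libraries, against 7.97% of all genes. The most abundant were Ifngr1 of the interferon gamma receptor (242 to 522 CPM in young and 306 to 437 CPM in old mice), Il10rb (232 to 261 and 229 to 347 CPM), Csf2ra of the GM-CSF receptor (238 to 325 and 228 to 253 CPM) and Ifnar2 (159 to 182 and 163 to 170 CPM). Il2rg, the common gamma chain that holds Jak3, was chosen for mention after its values were seen. It is on chromosome X and was not tested, and it had 83.3, 74.7, 71.4 and 152 CPM in young and 119, 180 and 118 CPM in old mice. Its ages overlapped, and its old mean of 139 CPM was above its young mean of 95.3 CPM, whereas that of Jak3 was below. Of 30 ligand genes 20 were tested and none passed in edgeR, limma-voom or DESeq2. An unadjusted p under 0.05 in edgeR was found for 1, against 18.9% of all genes. The median log2 fold change of the ligands was 0.19, and without 3posI it was -0.30 over the 18 then tested, with 3 at an unadjusted p under 0.05. Osm, a ligand of the interleukin-6 family, was the most abundant, at 203 to 288 CPM in young and 92.8 to 405 CPM in old mice, followed by Ebi3, Il15 and Clcf1 with at most 35.3 CPM in any library.

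Feedback genes and phosphatases, which switch the route off, gave a median log2 fold change of 0.06 over 18 genes, 11 of them with a higher fitted level in old mice, and 0.04 without 3posI. None passed in edgeR or limma-voom. An unadjusted p under 0.05 in edgeR was found for 7, against 18.9% of all genes, and DESeq2 passed 3, against 7.97%. Socs3, the inhibitor that Stat3 induces, had 785, 737, 598 and 569 CPM in young and 171, 293 and 481 CPM in old mice. The ages did not overlap, and the old libraries spread widely (log2 fold change -1.09, standard error 0.32, adjusted p 0.133 in edgeR). Socs1 had 3.88 to 6.67 CPM in young and 6.39 to 6.79 CPM in old mice, and Cish, which Stat5 induces, had 1.68 to 2.79 and 0.864 to 3.15 CPM. The phosphatases Ptpn6 and Ptpn1 had 397 to 499 and 179 to 222 CPM in young, and 448 to 491 and 210 to 296 CPM in old mice. Usp18, which blocks the interferon receptor, had 31.9 to 105 CPM in young and 104 to 108 CPM in old mice. In this list 5 of 18 genes did not overlap between ages, all lower in old mice, against 17.7% of all genes.

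Of 8 nuclear partners and cofactors, 1 passed in edgeR and limma-voom, against 0.803% and 0.814% of all genes. An unadjusted p under 0.05 was found for 4, against 18.9% of all genes, and DESeq2 passed 3 (Ncoa1, Crebbp and Nmi), against 7.97%. Ncoa1, a coactivator that binds Stat5 and Stat6, rose in old mice from 11.7, 10.3, 9.26 and 11.4 CPM to 23.5, 26.1 and 22.8 CPM. The log2 fold change was 1.18 with a standard error of 0.14 (adjusted p 0.0236 in edgeR), and without each of 14C, 18C, 23C, 29C or 2posI the adjusted p was 0.0506 to 0.108. Irf9, the DNA-binding partner of Stat2, had 65.8 to 85.0 CPM in young and 85.5 to 98.6 CPM in old mice (log2 fold change 0.25, adjusted p 0.304 in edgeR). Ndufa13, Irf1 and Nmi were the other abundant genes of the list, with mean CPM of 118, 96.9 and 26.1 in young and 155, 71.8 and 41.6 in old mice. In all, 6 of 8 had a higher fitted level in old mice, with a median log2 fold change of 0.36, and 4 did not overlap between ages, all higher in old mice, against 17.7% of all genes. Crebbp, an acetyltransferase that STATs recruit, was one of these and was chosen for mention after its values were seen. It had 73.5, 70.5, 60.6 and 74.6 CPM in young and 99.0, 98.1 and 111.7 CPM in old mice.

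Target genes of the other STATs did not pass in edgeR. For 12 Stat3 targets the median log2 fold change was -0.29, or -0.41 without 3posI, and none passed in edgeR or limma-voom. An unadjusted p under 0.05 in edgeR was found for 4, against 18.9% of all genes, and DESeq2 passed 2, against 7.97%. Of the 12, 3 did not overlap between ages, against 17.7% of all genes. These were Socs3 and Tnfaip3, lower in old mice, and Vegfa, a growth factor for vessels that was chosen for mention after its values were seen. Vegfa had 0.604 to 1.73 CPM in young mice, and 2.77, 35.4 and 3.65 CPM in 2posI, 3posI and 4posI. The most abundant were Junb, Socs3, Tnfaip3 and Mcl1, and Junb had 2307 to 4010 CPM in young and 1240 to 2650 CPM in old mice. Tnfaip3, a brake on NF-kappaB, had 670 to 881 CPM in young and 223 to 666 CPM in old mice, and Mcl1, a survival gene, had 187 to 285 and 194 to 322 CPM. For 8 Stat5 targets the median was 0.05, or -0.15 without 3posI, and none passed in edgeR or limma-voom. An unadjusted p under 0.05 in edgeR was found for 1, against 18.9% of all genes, and DESeq2 passed 1, against 7.97%. Osm, Bcl2l1, Pim1 and Bcl6 led that list, and Pim1, a kinase, had 44.9 to 87.7 CPM in young and 38.0 to 140 CPM in old mice, highest in 3posI.

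The summed level of Stat6 targets was highest in 3posI, through Chil3 and Arg1. Over 11 tested genes of 12 the median log2 fold change was 1.25, and none passed in edgeR, limma-voom or DESeq2. An unadjusted p under 0.05 in edgeR was found for 2, against 18.9% of all genes. Without 3posI the median was 0.49, with 8 of 11 at a higher fitted level in old mice and 1 at an unadjusted p under 0.05. Chil3 had 1426 CPM in 3posI and 7.76 to 68.9 CPM in the other 6 libraries, and Arg1 had 1148 CPM in 3posI and 0.582 to 70.1 CPM elsewhere. The summed CPM of the list was 2761 in 3posI, 220 and 165 in the other old libraries and 54.0 to 239.5 in young mice. Klf4 and Mrc1 were next, at 18.5 to 43.9 and 13.8 to 58.3 CPM in young and 32.9 to 83.4 and 23.3 to 79.2 CPM in old mice. Chil3 is also one of the monocyte markers that were highest in 3posI, and their part in these values was not tested. Stat6 itself had 165 CPM in 3posI, inside the young range.

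Jak3 is best known from lymphocytes, so lymphoid markers stand beside it. The summed CPM of 14 T cell markers was 2.19 to 12.5 CPM in the young and 6.91 to 12.7 CPM in the old libraries, with Cd3g at 0 in all young libraries and 6 genes of the list not overlapping, all higher in old mice, against 17.7% of all genes. Cd4 was the most abundant, at 1.31 to 10.2 CPM in young and 1.23 to 10.3 CPM in old mice, followed by Thy1, Lck and Trac with at most 1.35 CPM in any library. In 2posI, Cd4 held 10.3 of the summed 12.7 CPM. Of the 14 markers 12 had a higher fitted level in old mice, and none passed in edgeR. Their median log2 fold change was 4.10, and 3.55 without 3posI. Of 8 NK cell markers Klra8 was at 0 in all libraries and the sum was at most 3.63 CPM. The part of these cells in the Jak3 values was not tested.

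Genes were ranked by the likeness of their log2 CPM over 7 libraries to each of the 9, among 8142 others with a mean of at least 10 CPM. These correlations mix the difference between ages with that between libraries, share depth and scaling, and are a description. Jak3 and Tyk2 were alike (Pearson r 0.947, n = 7), and Jak2 ran opposite to Jak3 (r -0.858). Genes most like Jak3 were Tab1 (0.996), Scarb1 and Oplah, those most like Tyk2 were Smg5 (0.994), Relb and Ppp1r10, and those most like Jak2 were Rxra (0.991), Ap4s1 and Fndc3b. For Jak1 they were Selenok (0.962), Ube2q2 and Nt5c3, for Stat3 Lmbrd1 (0.981), Rbm47 and Pygl, and for Stat6 Snd1 (0.970), Arih2 and Mcoln1. For Stat5a they were Ppp6c (0.991), Zfp330 and Dnaja1, for Stat5b Surf6 (0.981), Taf5l and Slc35f5, and for Stat2 Fbxo33 (0.955), Gm5431 and Sdc3.

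When each library was taken as its deviation from the mean of its age, the pairs changed. Jak3 with Tyk2 had r 0.540, weaker than over all libraries. Jak3 with Jak2 had r 0.160, where r over all libraries was -0.858, so the opposite movement was not seen within ages. Stat5a with Stat5b had r 0.946, and RSEM split the reads that match both copies. Jak1 with Stat3 had r 0.887 and Jak2 with Stat3 had r 0.881. The genes most like Stat2 became Dhx58 (0.995), Gvin1 and Rtp4 (0.981), which are induced by interferon and of which Rtp4 is on the target list.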

How the data were processed

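Gene expression of sorted brain microglia was measured in 7 libraries, 4 of young and 3 of old mice, grouped by each sample's label. The authors filtered reads with skewer, aligned them to GRCm38 by STAR, and ran RSEM with GENCODE m15; for STAR and RSEM the version is not given in the sources used here, and the labels name FastQC 0.11.5. The deposited expected counts are not normalized and split reads that match several genes. The authors' TPM values are scaled to each library and divided by length. The deposited FPKM values were not used. Each file also holds, as deposited, other columns with a length and an effective length per gene.

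After rounding to whole numbers, genes whose unrounded expected count exceeded 10 in any library were kept (18173), and 614 on chromosomes X, Y or M were removed, leaving 17559. In R 4.3.3, edgeR 4.0.16 gave TMM factors (0.952 to 1.05) and the quasi-likelihood test of age, with Benjamini-Hochberg adjustment and a threshold of 0.05; log2 CPM has a prior count of 1. Each library of an age was a separate mouse, and p-values measure the spread between libraries, amplification included. Coordinates came from GENCODE vM21 on the same build, which lacks 224 of the 50686 identifiers; promoters came from RefSeq. Where a symbol had several identifiers, the most counted was used. No molecular identifiers are named, so PCR copies count as reads.

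The 9 genes, the pathway lists and the marker lists were chosen with earlier results of these data known. Named genes are the 9, the 4 most abundant (mean TPM) of each list and any past the threshold, Stat4, Socs1, Socs3, Cish and Irf9, and the 3 genes most like each of the 9; any other is said to be picked with its values in view. Alternatives were RLE and upper-quartile factors, no filter, filterByExpr, X, Y and M kept, limma-voom (limma 3.58.1), DESeq2 1.42.0, an effective-length offset and each library left out. Sums with neighbouring genes and ratios of TPM, and the lists without 3posI, were added later, with the main values known. The fits were tested on simulated data. No comparison by the authors is in the files. Some genes of these lists are not reported here.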

Additional observations from a re-analysis of the deposited data

Results flagged for a closer look

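In the 4 young libraries, the gap between an extreme library and its nearest neighbour, divided by the range, was compared with Dixon's 95% critical value of 0.829. Of 78 genes named in the text or leading a list, 8 exceeded it, and chance gives about 1 in 20, or 3.90. Old mice (n = 3) were not tested.

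Stat5a was low in 29C, with 12.88 CPM against 14.81 to 14.97 CPM (gap ratio 0.923). Ptpn1 was low in 18C, with 179 CPM against 220 to 222 CPM (0.939). Socs1 was low in 23C, with 3.88 CPM against 6.43 to 6.67 CPM (0.915). Library 29C was high for Cxcl10, with 223 CPM against 121 to 129 CPM (0.919), for Aif1, with 646 CPM against 403 to 445 CPM (0.830), and for the neutrophil genes S100a8, with 74.9 CPM against 1.10 to 8.61 CPM (0.898), and S100a9, with 21.1 CPM against 0.0588 to 3.22 CPM (0.849). Ly6c2, a monocyte marker, was high in 14C, with 2.86 CPM against 0.946 to 1.22 CPM (0.859).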

How the results depend on the processing

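Genes passing between ages were 141, and 288 with no filter and 1399 with DESeq2; leaving out 1 library gave 1 (without 14C, 18C or 2posI) to 159 (without 3posI), with 2 without 29C, 14 without 23C and 85 without 4posI. Of the 9 genes 1 passed, with 2 under no filter (Jak3, Tyk2), 3 by DESeq2 (Jak2, Jak3, Tyk2), and 0 to 2 with 1 library left out; Jak3 did not pass without 14C, 18C, 29C or 2posI, though its log2 fold change stayed between -1.17 and -1.05, and Tyk2 passed as well without 3posI. Of the other pathway genes 1 of 118 passed (Ncoa1), 0.847% against 0.803% of all genes. DESeq2 passed 15 of 118, 12.7% against 7.97% of all genes. With no filter 2 of 125 passed (Vegfa added), 1.6% against 1.05%. The effective-length offset gave 2 of 118 (Crebbp added), 1.69% against 1.12%, and leaving out 1 library gave 0 to 2.

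Jak2, Jak3, Tyk2, Stat5b and Stat6 kept their direction under every alternative run. Jak1 turned to -0.24 with the effective-length offset, which follows from its longer estimated length in old mice. In TPM it was -0.33, where that length and the shift of all genes tested (median log2 ratio -0.12) both enter. Stat5a turned to -0.11 with the offset, -0.22 in TPM and -0.12 summed with Stat5b. With 1 library left out, Stat2 ranged from -0.24 to 0.12 (29C), Stat3 from -0.26 to 0.10 (above 0 without 14C, 2posI or 4posI) and Stat5a from -0.17 to 0.17 (below 0 without 29C or 3posI). The causes were not tested. The median r between the 9 genes was 0.264, and 0.522 for deviations from age means. By CPM in place of TPM, Jak2 and Stat5a exchanged ranks 8 and 9. No paired analysis was possible because the labels give the libraries no shared replicate numbers.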

Other observations

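Markers of other cell types were summed as a description of the sort. Dendritic cell markers summed to 135 to 711 CPM in young and 250 to 641 CPM in old mice, most of it Siglech, which microglia also express (125 to 695 and 185 to 620 CPM), with Batf3, Ccr7 and Cd209a far lower. Neutrophil markers summed to 173 to 431 and 273 to 298 CPM, led by Csf3r, S100a8, S100a9 and Ngp. Most of it was Csf3r (171 to 323 and 171 to 236 CPM), which is also on the list of receptor chains. B cell markers summed to 50.2 to 205 and 81.0 to 291 CPM, most of it Ighm, with Cd79b at 8.61 to 22.2 CPM over all libraries and Pax5 at 0 in all. Endothelial markers (Cldn5, Pecam1, Flt1 and Tie1 leading) summed to 52.9 to 106 and 40.6 to 55.7 CPM, and markers of astrocytes, oligodendrocytes and neurons (Slc1a3, Gfap, Mag and Mbp leading) to 144 to 164 and 102 to 221 CPM. NK cell markers (Klrd1, Klrb1c, Gzma and Gzmb leading) summed to 0.495 to 1.67 and 0.298 to 3.63 CPM. In edgeR 0 genes of the marker lists passed, T cell markers included. Without 3posI 1 did (Ly6c2, a monocyte marker, named after its values were seen), against 0.915% of all genes. With all libraries, an unadjusted p under 0.05 in edgeR was found for 11 of 14 T cell, 5 of 8 dendritic and 4 of 6 monocyte markers. It was found for 1 each of the microglia, neutrophil and endothelial lists, and for 18.9% of all genes. Limma-voom passed 1 dendritic marker, against 0.814% of all genes. DESeq2 passed 3 T cell and 2 monocyte markers and 1 each of the microglia, dendritic and endothelial lists, against 7.97%.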
